A study of Mus musculus with 2 samples.

Results

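The 10 genes described here encode NK-type receptors, and were taken by symbol from the 56941 features that both libraries share: Klrk1, Klrc1, Klrd1, Klre1, Klrg1, Ncr1, Klrb1c, Klra4, Klra7 and Klra8. All 10 were found, each as 1 row of UMI (unique molecular identifier) counts. They were followed across NK, CD8 and CD4 cells and the other cells of liver metastases, and between the 2 libraries.

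The cells were CD45+ positive selections from liver metastases of C57BL/6 mice aged 6 to 8 weeks, taken 2 weeks after intrasplenic injection of MC38-LM3b, a liver-metastatic derivative of the mouse MC38 colon cancer line. The tumor cells carried either shScramble (Ctrl) or shSLAMF3 (KD, the hairpin numbered #2), and the mice themselves were not modified. The lesions of 3 mice were pooled into 1 library per group, so there was no replicate and no test was made. Every interval is a 95% interval of counting error that leaves out the spread between mice. Intervals of UMI sums and ratios also leave out the spread between cells, and are too narrow where few cells hold most UMIs. Group, library and any batch cannot be told apart. The 2 hairpins are shown because they are the only designed difference between the groups.
shRNA-Scramble: caacaagatgaagagcaccaa
shRNA-SLAMF3#2: caccctaatctgcactgtaaa

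NK cells read other cells through paired receptors that activate or inhibit them. Klrk1 (NKG2D), which signals through the adaptor Hcst, and Ncr1 (NKp46) activate on contact with stress-induced or other ligands. Klrd1 (CD94) pairs with Klrc1 (NKG2A) to read the class I molecule H2-T23 and inhibit, while the Ly49 family (Klra genes) reads classical class I molecules and is switched on gene by gene in single NK cells. Activated CD8 T cells take up several of these receptors, and Klrg1, which binds cadherins, marks differentiated T and NK cells and some regulatory T cells.

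After filtering, Ctrl held 9814 cells and KD 10185, with a median of 5411.5 and 4989 UMIs per cell, and 27 barcodes occurred in both libraries. Ly9, which encodes SLAMF3, had 12 UMIs in 159 Ctrl tumour-like or fibroblast-like cells (5.97 CPM, UMIs scaled to 1000000 per class) and 7 in 96 KD cells (5.35 CPM). At that depth the knockdown could not be read from these cells. NK cells were gated inside T and NK clusters as cells without CD3, Cd8 or Cd4 UMIs that held at least 3 of 7 NK genes, none of them a receptor described here, which gave 133 Ctrl and 141 KD cells. CD8 cells numbered 2594 and 1074, and CD4 cells 162 and 415. The clusters were made without any Klr gene or Ncr1. Of the NK cells, 12 in Ctrl and 13 in KD stood at the cut of 3 genes. Fcer1g was detected in 96.2% and 97.9% of them and Eomes in 59.4% and 34.8%.

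Promoters were read for 8 of the 10 genes from RefSeq sequence of build GRCm38.p6, over 250 bases before and 50 after the start. The files were made on GRCm39, so these coordinates do not belong to the count tables. They have 12 promoter entries in all, since Klre1, Ncr1, Klra7 and Klra8 have 2 starts each. The 5 shown, each at the first start listed, are those of Klrc1 and Ncr1, which had the highest NK cell ratios among the members with a promoter entry, and of the 3 Ly49 genes: Klrc1 at chr6:129678924-129679223 on the minus strand, Ncr1 at chr7:4337465-4337764 on the plus strand, Klra4 at chr6:130067222-130067521 on the minus strand, Klra7 at chr6:130231638-130231937 on the minus strand and Klra8 at chr6:130129849-130130148 on the minus strand. Capitals mark any match, on either strand, to TGTGGT (RUNX), CTTTGA (TCF/LEF), TTCNNNGAA (STAT) or AGGTGTNA (T-box).
Klrc1: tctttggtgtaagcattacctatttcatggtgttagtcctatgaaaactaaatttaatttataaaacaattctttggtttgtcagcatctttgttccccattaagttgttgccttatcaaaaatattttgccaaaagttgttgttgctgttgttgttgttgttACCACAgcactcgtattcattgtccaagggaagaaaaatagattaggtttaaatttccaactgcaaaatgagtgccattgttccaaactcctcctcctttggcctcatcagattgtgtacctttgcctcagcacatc
Ncr1: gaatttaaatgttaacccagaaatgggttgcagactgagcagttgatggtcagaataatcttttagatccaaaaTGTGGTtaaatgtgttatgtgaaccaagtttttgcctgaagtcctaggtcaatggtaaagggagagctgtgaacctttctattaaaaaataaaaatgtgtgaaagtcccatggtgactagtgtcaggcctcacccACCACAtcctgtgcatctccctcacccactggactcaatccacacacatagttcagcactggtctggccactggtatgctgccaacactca
Klra4: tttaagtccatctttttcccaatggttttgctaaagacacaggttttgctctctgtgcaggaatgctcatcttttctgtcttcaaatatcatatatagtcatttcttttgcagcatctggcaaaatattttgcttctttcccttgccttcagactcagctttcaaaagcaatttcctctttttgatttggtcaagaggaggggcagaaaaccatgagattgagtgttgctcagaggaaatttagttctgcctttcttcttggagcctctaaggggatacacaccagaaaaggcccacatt
Klra7: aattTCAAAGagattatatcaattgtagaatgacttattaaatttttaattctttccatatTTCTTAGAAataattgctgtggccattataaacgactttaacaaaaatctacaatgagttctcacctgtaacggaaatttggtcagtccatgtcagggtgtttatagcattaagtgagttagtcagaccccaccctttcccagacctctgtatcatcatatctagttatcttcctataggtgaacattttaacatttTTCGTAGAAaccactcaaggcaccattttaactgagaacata
Klra8: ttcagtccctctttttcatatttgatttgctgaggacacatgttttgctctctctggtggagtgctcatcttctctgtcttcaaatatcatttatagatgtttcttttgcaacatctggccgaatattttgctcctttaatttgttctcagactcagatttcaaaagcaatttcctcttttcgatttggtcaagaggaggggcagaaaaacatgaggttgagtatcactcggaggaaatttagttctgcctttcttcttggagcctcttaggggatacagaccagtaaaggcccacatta
RUNX letters stood in 6 of the 12 entries (Klrk1, Klrc1, Klrb1c, 1 start of Klre1 and both of Ncr1), against 16.8% of all promoter entries of this length. TCF/LEF letters stood in 3 (Klrk1 and both starts of Klra7) against 16.0%, STAT letters in 1 (1 start of Klra7) against 8.30%, and T-box letters in none against 3.03%. The 2 starts of a gene are not separate genes. A match describes letters only, not binding. The promoters of Klra4 and Klra8 were 86.05% identical, and that of Klra7 was 49.7% identical to Klra4 and 48.1% to Klra8. In the last 300 transcript bases, where 3' libraries read, the closest Ly49 gene was Klra1 for Klra4 (83.2% identity), Klra4 for Klra7 (73.9%) and Klra6 for Klra8 (85.7%). How the reads of such like copies were assigned was not tested, and Ly49 values are uncertain to that degree.

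**Figure D1:**
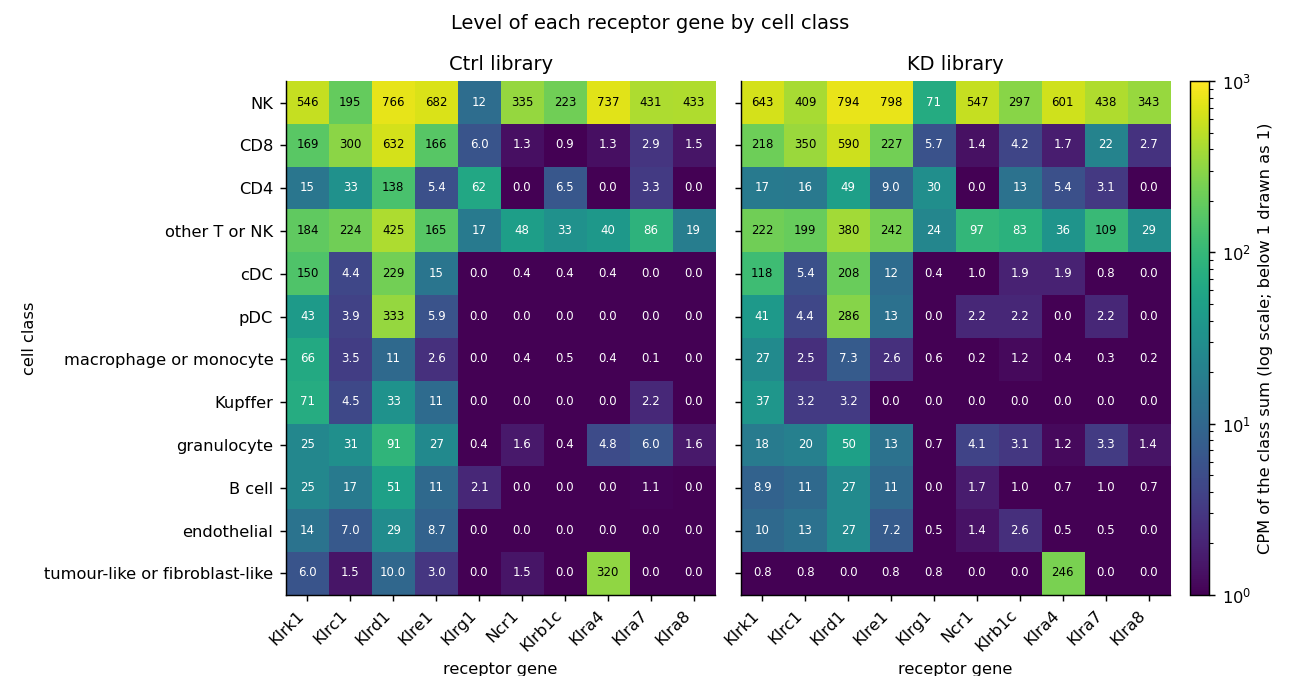
CPM of each of the 10 receptor genes (columns) in the summed cells of 12 classes (rows), with 1 panel per library and colour on a log scale. In both libraries Klra7, Klra8, Ncr1 and Klrb1c were highest in NK cells, Klra4 had a second high class in tumour-like or fibroblast-like cells, and Klrk1 and Klrd1 extended into dendritic cells.

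Each receptor gene was highest in NK cells in KD, and in Ctrl all but 2 were. The exceptions in Ctrl were Klrc1, at 300.03 CPM in CD8 cells against 195 in NK cells, and Klrg1, at 62.1 CPM in CD4 cells against 11.8 in NK cells. CD8 cells carried a narrower set. Klrk1, Klrc1, Klrd1 and Klre1 were all between 166 and 632 CPM there, while Ncr1, Klrb1c, Klra4, Klra7 and Klra8 were each at or under 2.92 CPM in Ctrl CD8 cells. CD4 cells held no UMI of Ncr1 or Klra8 in either library (0 of 162 and 0 of 415 cells).

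In NK cells Klrc1 and Klrg1 were at least 2-fold higher in KD, which makes 2 of 10 members, and none was 2-fold lower; of the 3722 genes with at least 50 UMIs, 1.61% were 2-fold higher and 2.31% lower. Klrc1 (ENSMUSG00000030167), the inhibitory partner of Klrd1, had 99 UMIs in Ctrl (195 CPM) and 255 in KD (409 CPM), a log2 ratio of KD over Ctrl of 1.07 (0.73 to 1.42). A Klrc1 UMI was found in 44 of 133 Ctrl and 74 of 141 KD cells. With cells thinned to 1500 UMIs the shares were 25.6% (18.1 to 34.4) and 35.5% (27.6 to 44.1), whose intervals overlap, with 12 Ctrl and 3 KD cells left out as too shallow. Klrg1 (ENSMUSG00000030114), an inhibitory receptor for cadherins, had 6 UMIs in Ctrl (11.8 CPM) and 44 in KD (70.5 CPM), in 5 and 27 cells, and a ratio of 2.58 (1.34 to 4.10). After thinning its share was 2.48% (0.514 to 7.07) and 6.52% (3.03 to 12.02). Ncr1 (ENSMUSG00000062524), the activating receptor NKp46, was also higher, with 170 UMIs in Ctrl (335 CPM) and 341 in KD (547 CPM) and a ratio of 0.71 (0.44 to 0.98).

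The activating and shared receptors differed less. Klrk1 (ENSMUSG00000030149) had 277 UMIs in Ctrl (546 CPM) and 401 in KD (643 CPM), a ratio of 0.24 (0.01 to 0.46). Klrb1c (ENSMUSG00000030325), which encodes the NK1.1 antigen, had 113 UMIs in Ctrl (223 CPM) and 185 in KD (297 CPM) and a ratio of 0.41 (0.07 to 0.76). Klre1 (ENSMUSG00000050241), which pairs with inhibitory or activating partners of the Klri family, stood at 0.23 (0.03 to 0.43), and Klrd1 (ENSMUSG00000030165), the common CD94 chain, at 0.05 (-0.14 to 0.25). The interval of Klrd1 spans 0 and holds differences of up to 0.25 on the log2 scale. Over the whole NK gate the Ly49 genes among the members, Klra4, Klra8 and Klra7, were lower or level in KD. Klra4 (ENSMUSG00000079852), the activating Ly49D, had 374 UMIs in Ctrl (737 CPM) and 375 in KD (601 CPM), a ratio of -0.29 (-0.50 to -0.08), and was detected in 48.8% (39.6 to 58.0) of thinned Ctrl cells and 25.4% (18.3 to 33.5) of KD cells. Klra8 (ENSMUSG00000089727), the activating Ly49H, stood at -0.34 (-0.62 to -0.06), and Klra7 (ENSMUSG00000067599), the inhibitory Ly49G, at 0.02 (-0.24 to 0.28).

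**Figure D2:**
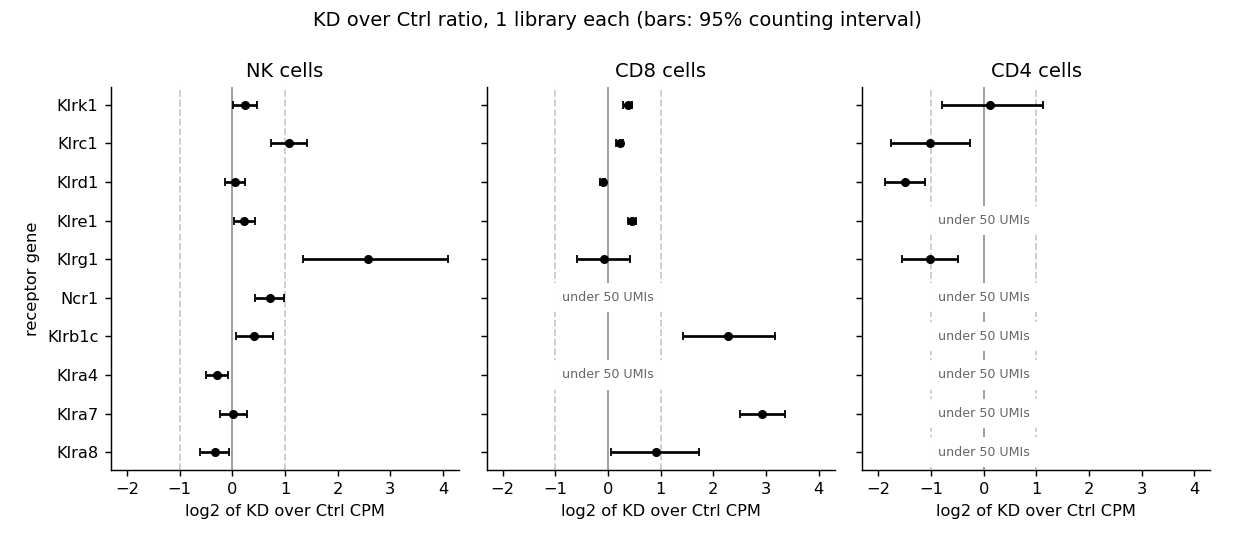
Log2 ratio of KD over Ctrl CPM for each receptor gene (points) in NK, CD8 and CD4 cells, with 95% counting intervals and dashed lines at a 2-fold difference. Klrc1 and Klrg1 lie past the line in NK cells, Klrb1c and Klra7 in CD8 cells, and Klrd1, Klrc1 and Klrg1 on the lower side in CD4 cells.

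An Itga1+ sub-cluster, led by Ncr1, Clnk, Klrb1b and Car2, held unequal shares of the NK gate: 6 of the 133 Ctrl cells and 38 of the 141 KD cells. The Itga1+ cells carried Klrk1, Klrc1 and Ncr1 but few Klra4 or Klra8 UMIs: in KD, Klra4 had 16.1 CPM there against 851 in the other NK cells, and Klra8 48.2 against 469. Klrk1 came to 0.18 (-0.07 to 0.43) outside the Itga1+ cells, an interval that spans 0, and turned to -0.06 with gates applied without clusters. Outside the Itga1+ cells the ratio of Klra4 turned to 0.10 (-0.11 to 0.31), that of Klra8 came to -0.01 (-0.29 to 0.28) and that of Klra7 to 0.23 (-0.04 to 0.51). The intervals of all these Ly49 genes span 0. Klra4 had 372 UMIs in each library there, in 66 of 127 Ctrl cells and 41 of 103 KD cells. Its thinned share was 50.43% (40.96 to 59.89) in Ctrl and 35% (25.73 to 45.18) in KD, whose intervals overlap. That of Klra8 was 30.43% in Ctrl and 34% in KD. The ratio of Klrc1 came to 0.90 (0.50 to 1.31) there, under the 2-fold line, and that of Ncr1 to 0.68 (0.38 to 0.98). Klrg1, with 6 and 29 UMIs there, came to a ratio of 2.37 (1.08 to 3.93).

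**Figure D3:**
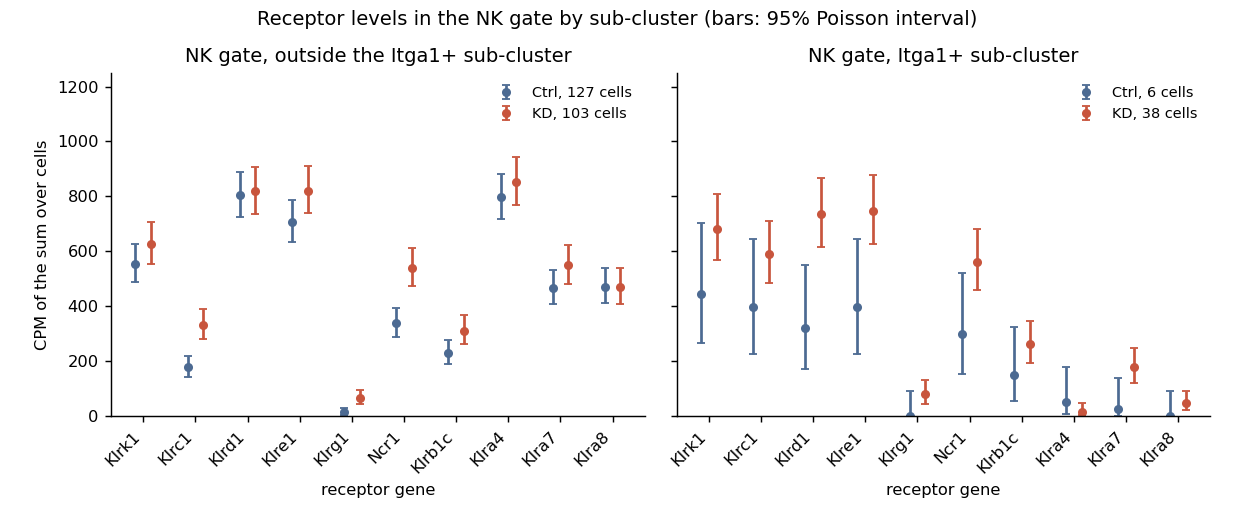
CPM of each receptor gene in the cells of the NK gate outside and inside the Itga1+ sub-cluster, by library, with 95% Poisson intervals. Klra4 and Klra8 were high outside the sub-cluster in both libraries and low in the Itga1+ cells, of which Ctrl had 6.

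Ly49 genes were read together in some NK cells and singly in others. Of 121 thinned Ctrl NK cells, 37 showed none of Klra4, Klra7 and Klra8, 44 showed 1, 27 showed 2 and 13 showed all 3. Of 138 KD cells the numbers were 72, 33, 23 and 10. Outside the Itga1+ cells, 32 of 115 Ctrl and 37 of 100 KD cells showed none, so most of the added KD cells without a UMI of these 3 genes were Itga1+. Klra4 was found in 54.3% of KD NK cells with a Klra8 UMI and in 15.5% of those without, and in Ctrl in 60% and 44.2%. The KD cells include 38 Itga1+ cells, of which 0 had a thinned Klra4 UMI and 1 a Klra8 UMI. This pair was not read outside the Itga1+ cells.

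In CD8 cells Klra7 and Klrb1c were at least 2-fold higher in KD, 2 of the 8 members with at least 50 UMIs, and none was lower; over 12003 genes 1.72% were higher and 1.97% lower. Klra7 had 64 UMIs in Ctrl (2.92 CPM) and 179 in KD (22.2 CPM), in 40 of 2594 and 48 of 1074 cells, a ratio of 2.93 (2.51 to 3.36). Few CD8 cells of either library held it, and thinned shares were 0.352% (0.161 to 0.666) and 2.52% (1.67 to 3.65). In B cells, which should lack it, Klra7 had 1 UMI in 285 Ctrl cells and 3 in 914 KD cells. Granulocytes, which should lack it too, had 15 Klra7 UMIs in Ctrl (5.99 CPM) and 30 in KD (3.29 CPM). The Klra7 level of CD8 cells was thus under that of granulocytes in Ctrl and above it in KD. Klrb1c rested on fewer counts, 19 UMIs in Ctrl (0.867 CPM) and 34 in KD (4.21 CPM), with a ratio of 2.28 (1.43 to 3.17). Granulocytes had 1 Klrb1c UMI in Ctrl (0.399 CPM) and 28 in KD (3.07 CPM), a ratio of 2.94 (0.35 to 8.30). Other classes had less in KD: B cells had 0 and 3 Klrb1c UMIs (0 and 1.03 CPM), and macrophages or monocytes 12 and 27 (0.504 and 1.21 CPM). One granulocyte cluster, of 34 Ctrl and 105 KD cells, had Gzma among its leading genes, and whether it holds mixed barcodes was not tested. The Klrb1c levels of CD8 cells were near those of granulocytes, and the difference is not read as one of expression by CD8 cells. Of the 3 other Ly49 genes from the list of further NK complex receptors with a 2-fold difference in CD8 cells, Klra1 had 5 UMIs in Ctrl and 80 in KD with a ratio of 5.44 (4.16 to 7.103), Klra6 13 UMIs in Ctrl and 53 in KD with 3.47 (2.57 to 4.47), and Klra3 125 UMIs in Ctrl and 98 in KD with 1.09 (0.69 to 1.48).

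The receptors with the most UMIs in CD8 cells, and Klrg1, differed by less than 2-fold. Klrk1 stood at 0.37 (0.29 to 0.45) from 3699 and 1760 UMIs, Klre1 at 0.45 (0.37 to 0.53) and Klrc1 at 0.22 (0.16 to 0.28). Klrd1, with 13865 and 4762 UMIs, stood at -0.10 (-0.15 to -0.05), and Klrg1 at -0.08 (-0.60 to 0.42). Without cycling cells Klrc1 turned to -0.15. A Klrc1 UMI was more frequent in CD8 cells with a Klrd1 UMI (44.2% in Ctrl and 44.4% in KD) than in those without (28.0% and 26.3%). In NK cells the order was the other way, at 23.1% against 30.2% in Ctrl and 33.0% against 40.4% in KD, from 121 and 138 cells.

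The CPM of Klra7 was higher in KD in each of the 4 CD8 states, which were set by marker UMIs, but rested on few cells. In cycling cells it had 39 UMIs in Ctrl (2.504 CPM) and 69 in KD (13.6 CPM), a ratio of 2.44 (1.85 to 3.04). In Gzma+ Pdcd1- cells it had 4 and 24 UMIs, and in the CD8 cells of no named state 10 and 80, a ratio of 3.69 (2.74 to 4.81). In PD-1+ TIM-3+ cells Klra7 had 11 UMIs in 5 Ctrl cells and 6 in 4 KD cells. Its interval there was -0.73 to 2.55, which spans 0. Klrk1 was higher in KD in all 4 states. Its interval was above 0 in cycling and PD-1+ TIM-3+ cells and spanned 0 in Gzma+ Pdcd1- cells, at 0.35 (-0.04 to 0.75), and in the remaining cells, at 0.07 (-0.15 to 0.28). Klrd1 was lower in KD in the remaining cells, at -0.47 (-0.59 to -0.35), and its interval spanned 0 in the other 3 states.

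**Figure D4:**
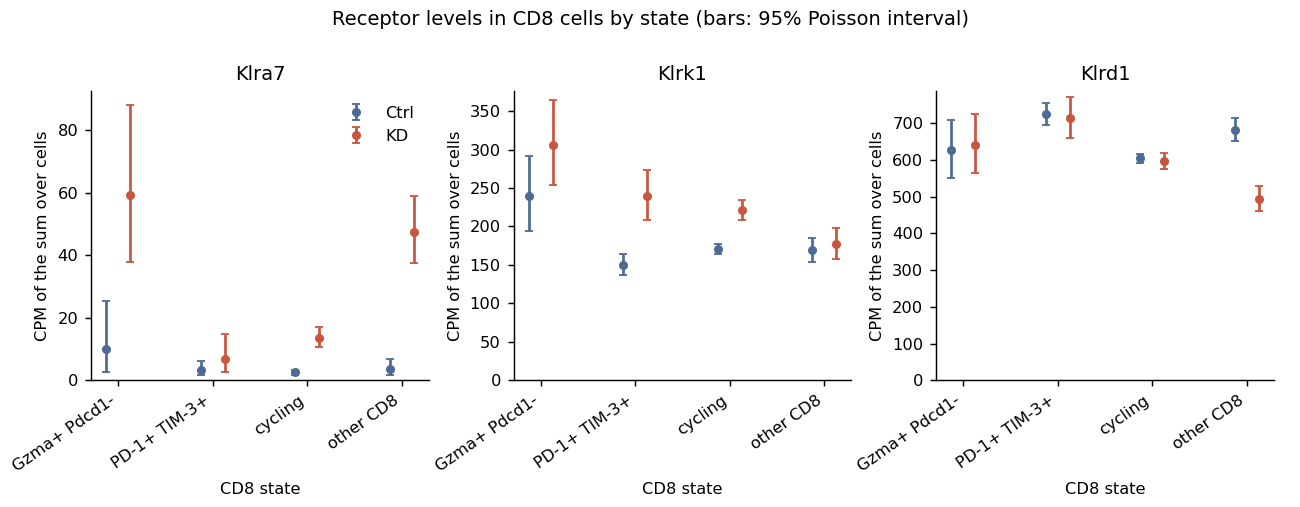
CPM of Klra7, Klrk1 and Klrd1 in 4 states of CD8 cells by library, with 95% Poisson intervals. The CPM of Klra7 is higher in KD in all 4 states, with overlapping intervals in PD-1+ TIM-3+ cells. Klrd1 is lower in KD in the remaining CD8 cells.

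In CD4 cells 3 of the 4 members with at least 50 UMIs were at least 2-fold lower in KD and none was higher; over 6801 genes 0.75% were lower and 1.01% higher. Klrd1 had 127 UMIs in Ctrl (138 CPM) and 110 in KD (49.3 CPM), a ratio of -1.49 (-1.87 to -1.11), Klrc1 30 UMIs in Ctrl (32.7 CPM) and 36 in KD (16.1 CPM), a ratio of -1.02 (-1.76 to -0.27), and Klrg1 57 UMIs in Ctrl (62.1 CPM) and 68 in KD (30.5 CPM), a ratio of -1.03 (-1.55 to -0.49). Only Klrd1 was past 2-fold under TMM scaling or without cycling cells. With classes taken from sub-clusters none of the 3 was, Klrc1 turned to 0.53, and Klrk1, Klre1 and Klrb1c were at least 2-fold higher. Klrk1 stood at 0.12 (-0.80 to 1.12). The Klrd1 and Klrc1 UMIs lay almost wholly in CD4 cells without a Foxp3 UMI, where Klrd1 had 126 and 108 UMIs. Foxp3+ CD4 cells held 1 and 2 Klrd1 UMIs and no Klrc1 UMI. Klrg1 was the receptor of the Foxp3+ cells, with 35 UMIs in Ctrl (177 CPM) and 33 in KD (126 CPM). In the Foxp3+ sub-cluster as a whole, of 82 and 128 cells, it stood at 135 and 145 CPM. As a background, B cells, which should lack these receptors, had 51.2 CPM of Klrd1 in Ctrl and 27.4 in KD, 17.1 and 10.6 of Klrc1, and 2.13 and 0 of Klrg1. Granulocytes had 91.1 and 50.1 CPM of Klrd1, with a ratio of -0.86 (-1.09 to -0.63), and 31.2 and 20.1 of Klrc1, with a ratio of -0.63 (-1.02 to -0.23). The Klrc1 level of CD4 cells was thus about that of granulocytes in both libraries, and its difference is not read as one of expression by CD4 cells. The Klrd1 level of CD4 cells was above that of granulocytes in Ctrl and about level with it in KD.

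T and NK cells outside the 3 gates, mostly CD3+ cells without a coreceptor UMI, also carried the receptors. In the CD3+ cells without a coreceptor UMI, Ncr1 had 99 UMIs in Ctrl (50.2 CPM) and 255 in KD (106 CPM) and Klrb1c 74 UMIs in Ctrl (37.5 CPM) and 218 in KD (90.6 CPM), ratios of 1.08 (0.74 to 1.43) and 1.27 (0.88 to 1.67). A Zbtb16+ Il4+ sub-cluster of 5 Ctrl and 99 KD cells held 7 and 60 Klrb1c UMIs. The Itga1+ sub-cluster, which held 20 Ctrl and 115 KD cells with and without CD3 UMIs, had 157 and 257 CPM of Klrb1c and 417 and 506 of Ncr1.

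Outside T and NK cells, Klrk1 and Klrd1 were read in myeloid classes. Macrophages or monocytes had 1564 UMIs in Ctrl (65.7 CPM) and 610 in KD (27.3 CPM) of Klrk1, a ratio of -1.27 (-1.41 to -1.13), past 2-fold, where 2.66% of 12955 genes were 2-fold lower and 2.53% higher. Klrk1 was lower in KD in each macrophage or monocyte cluster with at least 50 Klrk1 UMIs, from -0.43 (-0.75 to -0.13) in the Nos2+ cluster to -1.15 (-1.85 to -0.46) in the Vcan+ cluster, with -0.92 (-1.10 to -0.74) in the C1q+ cluster, so the pooled ratio was larger in size than that of any of these clusters. As a background, granulocytes had 24.8 CPM of Klrk1 in Ctrl and 17.7 in KD, a ratio of -0.49 (-0.92 to -0.04), and B cells 24.5 and 8.90. The Vcan+ cluster, at 18.1 and 8.13 CPM, was under granulocytes, and its difference is not read as one of expression by its cells. The C1q+ cluster, at 80.9 and 42.8 CPM, and the Nos2+ cluster, at 56.3 and 41.7, were above granulocytes. In macrophages or monocytes Klrk1 UMIs outnumbered those of Klrd1, 1564 to 253 in Ctrl, whereas in CD8 cells Klrd1 outnumbered Klrk1, 13865 to 3699. Conventional dendritic cells had 150.5 and 118 CPM of Klrk1 and 229 and 208 of Klrd1. Plasmacytoid dendritic cells had 333 and 286 CPM of Klrd1. Klrc1, the partner of Klrd1, was at 4.38 and 5.37 CPM in conventional dendritic cells.

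Klra4 had a second site of detection, in keratin+ cells of the tumour-like cluster. This split by keratin and collagen UMIs was made after the values were seen. Keratin+ collagen- cells held 615 Klra4 UMIs in 114 Ctrl cells (364 CPM) and 313 in 69 KD cells (289 CPM). A Klra4 UMI was present in 84.2% and 75.4% of them. The same cells held no UMI of Klra7, Klra8 or Klrb1c, but 42 and 35 UMIs of Klra2 and 14 and 5 of Klra6. Ncr1, whose CPM was highest in NK cells, had 3 and 0 UMIs there. Of all Klra4 UMIs in the files, these cells held 41.4% in Ctrl and 23.3% in KD, and NK cells 25.2% and 27.9%.

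**Figure D5:**
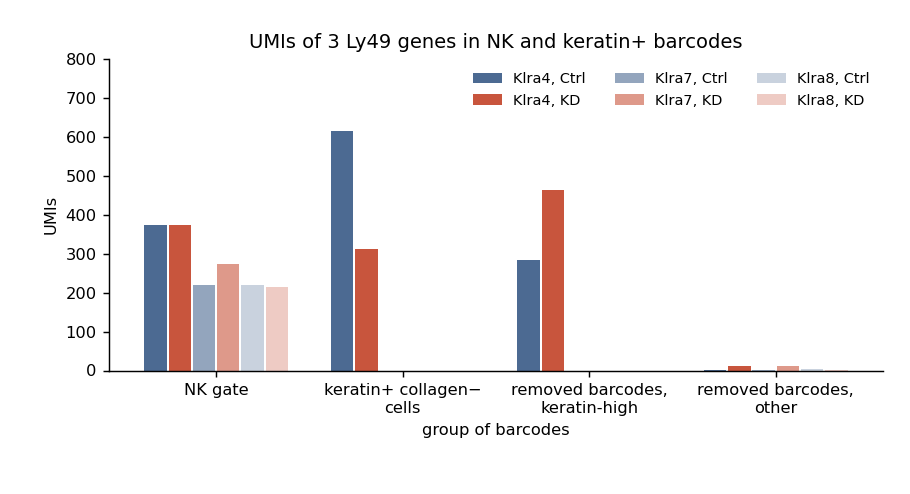
UMIs of Klra4, Klra7 and Klra8 in the NK gate, in keratin+ collagen- cells and in barcodes removed by the cell filter, by library. NK cells hold all 3 genes, while both keratin-positive sets of barcodes hold Klra4 without Klra7 or Klra8.

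Further receptors and signalling genes in NK cells were taken from lists chosen with earlier results of these data known. Over all NK cell genes with at least 50 UMIs, 1.61% were 2-fold higher and 2.31% lower in KD, with a median log2 ratio of -0.05. Of 14 other receptors of the NK gene complex, 8 had at least 50 UMIs, 1 was 2-fold higher in KD and none lower (Klra1, with 19 UMIs in Ctrl and 67 in KD). The median log2 ratio was 0.33 for this list, 0.10 for other receptors read on NK cells, -0.02 for adaptors and -0.43 for transcription factors. Of 10 other receptors read on NK cells, 7 had at least 50 UMIs and 2 were higher: Cd226, an activating receptor for nectin-like ligands, at 1.63 (1.09 to 2.20), and Cd160, which binds class I molecules, at 1.63 (0.92 to 2.40). All 6 signalling adaptors had at least 50 UMIs and none passed 2-fold, among them Hcst, the adaptor of Klrk1, at -0.05 (-0.40 to 0.30), and Tyrobp, the adaptor of activating Ly49 receptors, at 0.13 (-0.03 to 0.30). Of 8 transcription factors, 7 had at least 50 UMIs, 1 was 2-fold lower in KD and none higher. The lower one was Eomes, a T-box factor of mature NK cells, at -1.23 (-1.62 to -0.85), while Tbx21 stood at 0.12 (-0.19 to 0.43). The values of all these lists cover the whole NK gate, with its 6 Ctrl and 38 KD Itga1+ cells, and were not taken outside the Itga1+ cells. Eomes was among the NK markers of the sub-cluster led by Klra4 and Klra8 but not of the Itga1+ sub-cluster. Eomes, Tyrobp and Fcer1g are among the 7 gate genes. Each gated NK cell had to hold a UMI of Fcer1g or Tyrobp, so the levels of these 2 adaptors are partly set by the gate. In CD8 cells Tcf7, a factor of naive and memory T cells, was higher at 1.57 (1.42 to 1.73).

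Ligands were compared by class from a list of 17, of which 13 symbols are used in the files. H2-T23, the ligand of the Klrd1 and Klrc1 pair, was highest in plasmacytoid dendritic cells at 469.6 and 469 CPM. Cdh1, a ligand of Klrg1, was highest there too, at 164 and 161 CPM. Cdh2 was highest in tumour-like or fibroblast-like cells, at 114 and 84.1 CPM. The Klrk1 ligands Ulbp1 and Raet1e stood at 67.2 and 48.2 and at 34.9 and 52.0 CPM in those cells.

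The genes outside the Klr family and Ncr1 that were most like each receptor, among those with at least 200 UMIs, were named by Pearson's r of log2(CPM + 1) over 24 class sums, 12 classes in 2 libraries, which share library and depth. For Klrc1 they were Prf1 (0.94), Ctsw (0.93), Baiap3 (0.93), and for Klre1 Prf1 (0.93), Cldnd2 (0.92), Eomes (0.90), of which Prf1 and Eomes belong to the NK gate. For Klrd1 they were Cd7 (0.90), Gm36723 (0.87), Il12rb2 (0.87), and for Klrk1 Epsti1 (0.84), Prex1 (0.84), Gnptab (0.84). For Klra4 they were Styk1 (0.93), Itga2 (0.89), Klhdc2 (0.86), for Klra7 1810006J02Rik (0.94), Samd3 (0.94), Cited4 (0.92), and for Klra8 Cited4 (0.93), Gm43647 (0.93), 1810006J02Rik (0.91). For Ncr1 they were Cited4 (0.91), Gm43647 (0.90), 1810006J02Rik (0.90), for Klrb1c 1810006J02Rik (0.96), Trgc4 (0.95), Cited4 (0.93), and for Klrg1 Gprin3 (0.91), Gm11802 (0.91), Baiap3 (0.91).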

How the data were processed

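The authors deposited UMI counts per gene and barcode for 2 libraries, made per the labels with a 10x 3' v3.1 kit. The submitters' processing notes name Cell Ranger 7.1.0, Seurat 5.1.0, R 4.4.1 and build GRCm39. Values were not normalized. The study's limits (no fewer than 200 genes and no more than 10% mitochondrial UMIs, 30000 UMIs or 6000 genes) kept 19999 of 21359 barcodes, and no doublet caller was run. Clusters (2000 variable genes, 20 components, 20 neighbours, Leiden resolution 1 and 1.5 within T and NK cells; leidenalg 0.10.2) used no Klr gene and not Ncr1, and were named from marker lists. CD8 and CD4 cells held CD3 and only that coreceptor's UMIs. CD8 states were cycling (Mki67 or Top2a), PD-1+ TIM-3+ (Pdcd1 and Havcr2), Gzma+ Pdcd1- and the remaining cells, with which a planned state that needs an item not reported here was merged. Members and lists were chosen with earlier results of these data known, and named genes were the 10 members, list genes with at least 50 UMIs and the 3 most alike genes.

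UMIs were summed by class and library and scaled to CPM. Counts have exact Poisson intervals, shares Clopper-Pearson intervals, and log2 ratios exact conditional binomial intervals (scipy 1.17.1, Python 3.11.15). A member with at least 50 UMIs over both libraries was called at a 2-fold difference. For shares, cells were thinned to 1500 UMIs. TMM factors came from edgeR 4.0.16. The interval method was tested on simulated data. Total UMIs per library were 67207234 in Ctrl and 64444715 in KD.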

Additional observations from a re-analysis of the deposited data

Results flagged for a closer look

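With 1 library per group, the differences between classes below were not tested. Klrc1 was higher in KD NK and CD8 cells and lower in KD CD4 cells, so that its log2 ratio was 2.09 and 1.24 above that of CD4 cells. The CD8 ratio turned to -0.15 without cycling cells and the CD4 ratio to 0.53 with classes taken from sub-clusters, and the CD4 level was about that of granulocytes, which should lack Klrc1. Klrg1 was higher in KD NK and lower in KD CD4 cells, 3.60 apart, but the NK ratio rests on 6 Ctrl UMIs. Its interval spanned 0 in Foxp3+ CD4 cells, at -0.50 (-1.23 to 0.23), and in those without a Foxp3 UMI, at -0.78 (-1.59 to 0.06). In the Foxp3+ sub-cluster as a whole the Klrg1 ratio was 0.10 (-0.33 to 0.53). Klrk1 was higher in KD NK and CD8 cells and lower in KD macrophages or monocytes, 1.505 and 1.64 apart. The NK ratio of Klrk1 turned to -0.06 with gates applied without clusters, and its interval spanned 0 outside the Itga1+ cells. Klra8 was higher in KD CD8 and lower in KD NK cells, 1.24 apart, but the CD8 value rests on 32 and 22 UMIs in 7 cells of each library, and the NK ratio came to -0.01 (-0.29 to 0.28) outside the Itga1+ cells.

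Signal was also seen outside the filtered cells. The cell filter removed 27 barcodes in each library with at least 20 keratin UMIs, which held 285 Klra4 UMIs in Ctrl (262 CPM) and 465 in KD (407 CPM). They held no Klra7 or Klra8 UMI. The other removed barcodes held 2 and 12 Klra4 UMIs.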

How the results depend on the processing

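No paired analysis was possible because each group had 1 library. Of the member ratios in NK, CD8 and CD4 cells, 193 values under alternatives lay inside the reported interval and 29 outside it, and the cause was not tested. Beside these, Klrc1 in CD4 cells turned to 0.53 with classes taken from sub-clusters. Among the values outside, in NK cells, Klra4 turned to 0.21 and Klra8 to 0.11 under the same setting, and Klrk1 to -0.06 with gates applied without clusters. Klra7 in NK cells rose to 0.41 (0.17 to 0.65) with classes taken from sub-clusters. The count of 2 members higher in KD NK cells became 1 with a stricter or with no cell filter and 0 with classes from sub-clusters, without cycling cells, without likely doublets (over 0.2% macrophage, granulocyte or B cell list UMIs) or, chosen after seeing the data, without the Itga1+ sub-cluster. In those settings Klrg1 fell under 50 UMIs or Klrc1 under 2-fold, and the ratio of Klrc1 stayed between 0.35 and 1.18. The 2 higher in KD CD8 cells became 1 with stricter gates, with classes from sub-clusters or without cycling cells, and 4 with gates applied without clusters. Klra7 was among them each time, at 2.00 to 3.23. The 3 lower in KD CD4 cells became 0 with classes from sub-clusters and 1 without cycling cells or with TMM scaling, and the count of 0 higher became 3 with classes from sub-clusters and 2 at a minimum of 10 UMIs. Thinned shares moved outside their interval in 65 of 120 comparisons with unthinned cells or cells thinned to 1000 UMIs.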
